A study of Mus musculus with 16 samples.

Results

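Troponin is the calcium switch of striated muscle, and its 8 genes, Tnnt1, Tnnt2, Tnnt3, Tnni1, Tnni2, Tnni3, Tnnc1 and Tnnc2, were followed in the inner ear of mice that carry a transgene of the miR-183 cluster. A gene was taken from the probesets that the platform table pairs with 1 symbol, and all 8 were found among 19937 genes so named. Each troponin gene had 1 probeset. No gene was chosen by its signal, although the set was drawn up with earlier results of these arrays known.

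The complex sits at intervals along the actin filament with tropomyosin and has 3 subunits. Troponin T ties the complex to tropomyosin, troponin I holds the filament off when calcium is low, and troponin C binds calcium and releases that block. Vertebrates use different genes for the subunits in different muscles. Fast skeletal fibres use Tnnt3, Tnni2 and Tnnc2, slow skeletal fibres use Tnnt1, Tnni1 and Tnnc1, and the heart uses Tnnt2, Tnni3 and the same Tnnc1. Tnnt2 and Tnni1 are also made early in development, Tnnt2 in skeletal muscle and Tnni1 in the heart. The sensory epithelium of the cochlea has no striated muscle fibres, while the middle ear beside the cochlea holds small skeletal muscles.

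The transgenic mice were Tg1MDW/1MDW homozygotes, in which the human GFAP promoter, active in glia and in supporting cells of the organ of Corti (OC), drives Mir183, Mir96 and Mir182 on an FVB/NCrl background. They come from 1 of 3 founder lines. The OC was microdissected at postnatal day 5 (P5) from 5 Tg1MDW/1MDW and 5 WT samples, and the cochlea was taken at day 18 (P18) from 3 Tg1MDW/1MDW and 3 WT samples, WT being littermates without the transgene. Each sample was read on 1 MoGene 1.0 array. Groups follow the sample titles, because other fields of the labels conflict with them in tissue, age or genotype. The ages in those fields, 5.5 and 18.5 days, fit the titles only for Tg1MDW/1MDW replicates 1 to 4 of P5. The titles fit the transgene, since the signal of Mir96 was 8.04 to 8.64 in Tg1MDW/1MDW against 4.61 to 5.10 in WT at P5. At P18 it was 7.77 to 7.91 in Tg1MDW/1MDW against 4.13 to 4.86 in WT. This check bears on genotype and not on age or tissue.

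Signals below are log2 values as deposited, and a change is the mean of Tg1MDW/1MDW minus the mean of WT unless said otherwise. The labels and methods do not state if RNA of several animals was pooled for an array. P-values then describe how far samples lay apart, and part of that spread may be technical. The averaged signal of Kdm5d, Uty and Eif2s3y, which are Y-linked, was 7.65 to 7.66 in Tg1MDW/1MDW and 7.22 to 7.34 in WT at P18. At P5 it was 8.61 to 8.96 on 5 arrays, 1 Tg1MDW/1MDW and 4 WT, and 3.90 to 4.06 on the other 5. Sex as read from these genes thus went largely with genotype at P5, and the part of each cannot be fully told apart. Every P18 array lay between the higher and the lower P5 level, and all P18 Tg1MDW/1MDW arrays were above all P18 WT arrays. Whether RNA of both sexes was mixed on the P18 arrays, or came from shared pools, was not tested. Array medians lay between 6.33 and 6.63, and the lowest lower quartile of an array was 4.54, below the signal of every troponin gene on every array. Group means of Tnnt1, Tnni1, Tnnc1 and Tnni3 were 5.55 to 6.38, in each group below the medians of its arrays. Those of Tnnc2 were too, except in Tg1MDW/1MDW at P18. Whether genes this dim were detected, or how far a dim signal could hide a change, was not tested.

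At P18 the 3 fast subunits were higher in the Tg1MDW/1MDW cochlea, and none of the other 5 troponin genes passed the test. Tnnt3, the fast troponin T, read 9.72, 9.59 and 9.72 in Tg1MDW/1MDW, against 6.95, 6.63 and 6.69 in WT. All Tg1MDW/1MDW arrays were above all WT arrays by a wide gap, and the 3 arrays of each genotype lay close together. The change was 2.92 (standard error 0.14, 95% interval 2.61 to 3.22), a 7.55-fold higher signal with an adjusted p of 1.1e-08 in limma. Among all 34760 probesets, this was the eighth largest rise (rank 8).

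Tnnc2, the fast troponin C, read 7.76, 7.90 and 7.39 in Tg1MDW/1MDW and 5.79, 5.90 and 5.86 in WT at P18. The genotypes were again fully apart, with a wider spread in Tg1MDW/1MDW (SD 0.26) than in WT (SD 0.06). Its change of 1.84 (standard error 0.17, interval 1.47 to 2.20, adjusted p = 1.5e-05 in limma) is 3.57-fold and ranked 25. Tnni2, the fast troponin I, read 8.12, 8.01 and 8.15 in Tg1MDW/1MDW and 6.78, 6.74 and 6.83 in WT. It had the smallest rise of the fast subunits, 1.31 (standard error 0.16, interval 0.97 to 1.64, adjusted p = 3.5e-04 in limma), which is 2.48-fold and ranked 48. With each array left out in turn, the change stayed between 2.85 and 3.01 for Tnnt3, 1.73 and 1.98 for Tnnc2 and 1.28 and 1.35 for Tnni2, and all 3 genes passed each time. With that Y-linked average as a covariate, changes were 2.93, 1.85 and 1.31. The average spanned only 7.22 to 7.66 at P18, against 3.9 to 8.96 at P5. The covariate could thus hardly move a P18 change, and it does not settle the part of sex there. In RNA from a whole tissue, more cells of a type and more RNA per cell cannot be told apart.

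**Figure D1:**
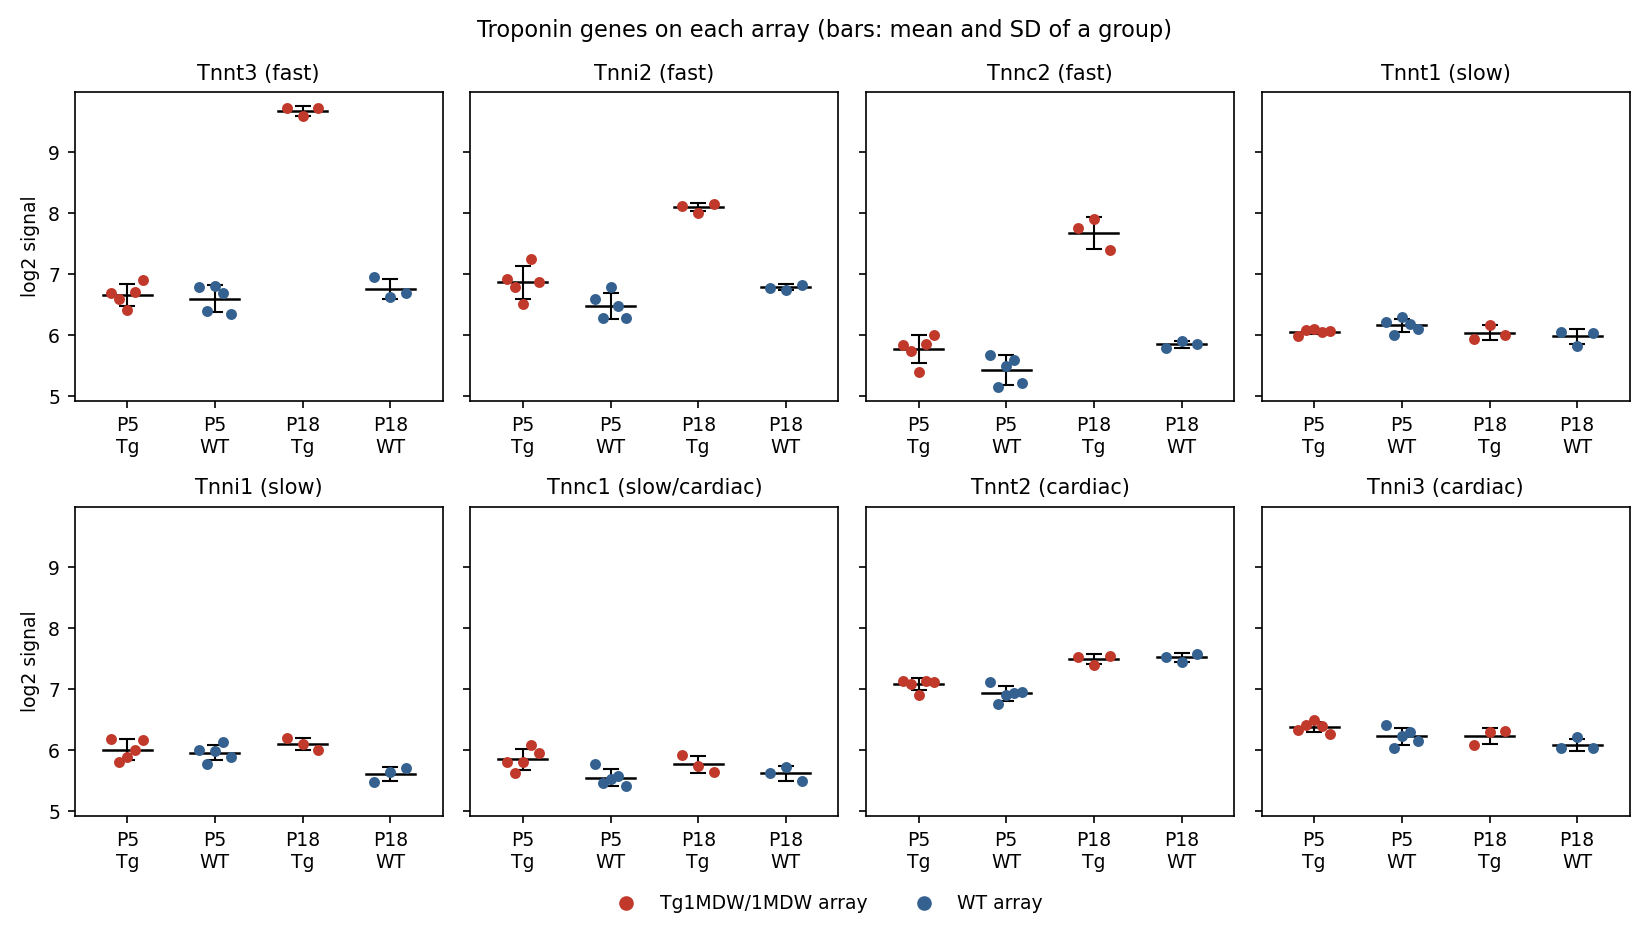
Log2 signal (vertical axis) of each troponin gene on each array, by age and genotype, with a black bar at the mean of a group and whiskers of 1 SD (n = 5 per genotype at P5 and n = 3 at P18). In the top row the P18 Tg1MDW/1MDW points of Tnnt3 (9.59 to 9.72), Tnni2 (8.01 to 8.15) and Tnnc2 (7.39 to 7.90) stand above all other arrays, and of the other 5 genes only Tnni1 has P18 Tg1MDW/1MDW points (6.0 to 6.2) above all P18 WT points.

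The slow subunits were read at nearly the same level in both genotypes, except for Tnni1. Tnnt1, the slow troponin T, read 5.94, 6.17 and 6.0 in Tg1MDW/1MDW and 6.06, 5.83 and 6.04 in WT at P18. The groups overlapped, and the change of 0.06 had an interval of -0.14 to 0.26 (limma adjusted p = 0.93). Tnni1, the slow troponin I, read 6.2, 6.1 and 6.0 in Tg1MDW/1MDW and 5.47, 5.64 and 5.71 in WT. All Tg1MDW/1MDW arrays were above all WT arrays, and the change of 0.50 (interval 0.25 to 0.74) is 1.41-fold. It missed the threshold after adjustment over all probesets (unadjusted p = 6.8e-04, adjusted p = 0.096 in limma). It passed where arrays were weighted by their quality (adjusted p = 0.0043) and where only probesets with a single symbol were tested (adjusted p = 0.044). Tnnc1, the troponin C of both slow fibres and the heart, read 5.92, 5.74 and 5.64 in Tg1MDW/1MDW and 5.62, 5.73 and 5.50 in WT. These groups overlapped, with a change of 0.15 (interval -0.11 to 0.41, limma adjusted p = 0.83).

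The troponin T and troponin I of the adult heart did not pass at P18 either. Tnnt2, the cardiac troponin T, read 7.52, 7.40 and 7.54 in Tg1MDW/1MDW and 7.53, 7.44 and 7.58 in WT. The groups overlapped almost completely, and the interval of the change ran from -0.24 to 0.17 around -0.03 (limma adjusted p = 0.97). Tnni3, the cardiac troponin I, read 6.08, 6.29 and 6.32 in Tg1MDW/1MDW and 6.03, 6.21 and 6.03 in WT. Its groups overlapped too, and the change was 0.14 (interval -0.08 to 0.36, limma adjusted p = 0.80). The upper bounds of these intervals leave room for small rises in signal of the slow and cardiac genes, and all lie below the smallest rise of a fast gene. The intervals cover the spread between arrays and not how strongly each probeset responds, so they do not bound changes of RNA.

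**Figure D2:**
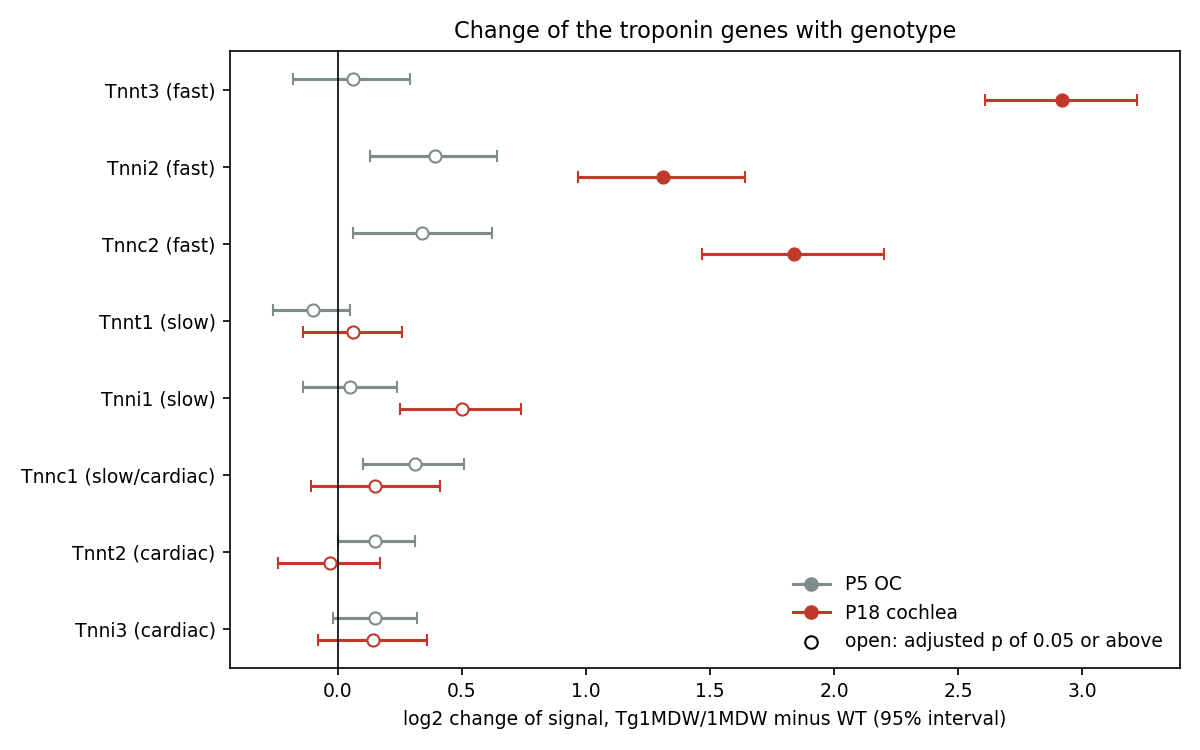
Change of log2 signal, Tg1MDW/1MDW minus WT (horizontal axis), for each troponin gene in the P5 OC (grey) and the P18 cochlea (red), with 95% intervals from limma and filled points where the adjusted p was under 0.05. Only Tnnt3, Tnni2 and Tnnc2 at P18 have filled points, at 2.92, 1.31 and 1.84, and Tnni1 at P18 has an interval of 0.25 to 0.74 that lies above 0 with an open point.

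In all, 3 of the 8 troponin genes were higher at P18 and 0 were lower, where 0.443% of all probesets passed (0.383% higher and 0.0604% lower). At an unadjusted p under 0.05 there were 4, where 8.77% of all probesets were under it. The P18 groups did not overlap, with Tg1MDW/1MDW above WT, for 4 of the 8 genes and for 14% of all probesets. The median change of the 8 genes was 0.32, and that of all probesets was -0.02.

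Isoforms of 1 subunit were then compared by their changes, using the difference of their signals on the same array, since levels of different probesets cannot be set against each other. Probesets may also differ in how strongly they respond to a change, which was not tested. Among the troponin T genes at P18, Tnnt3 changed by 2.86 more than Tnnt1 (interval 2.49 to 3.22) and by 2.95 more than Tnnt2 (interval 2.70 to 3.21). Between Tnnt1 and Tnnt2 the changes differed by 0.09 (interval -0.24 to 0.43). Among the troponin I genes, Tnni2 changed by 0.81 more than Tnni1 (interval 0.53 to 1.10) and by 1.17 more than Tnni3 (interval 0.82 to 1.52), and Tnni1 by 0.36 more than Tnni3 (interval -0.07 to 0.79). Between the troponin C genes, Tnnc2 changed by 1.69 more than Tnnc1 (interval 1.30 to 2.08). For 6 of these 7 P18 pairs, all but Tnnt1 and Tnnt2, the genotypes did not overlap, although the interval of Tnni1 and Tnni3 included 0. The share of other gene pairs that lie apart was not computed. Of single probesets, 14% lay apart with Tg1MDW/1MDW above WT. Each of the 6 troponin pairs reached p = 0.10 in a two-sided exact permutation test, the smallest that 3 arrays against 3 allow, and 0.18 after adjustment over the 14 pairs tested at both ages. This test cannot go below that p at P18, whatever the size of the difference.

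Promoter windows of 6 troponin genes, all but Tnnt3 and Tnni2, were taken from RefSeq (GRCm38.p6), 8 windows in all since Tnni1 and Tnnt2 have 2 each. Tnnc2 is thus the only fast gene in what follows on motifs. The windows of both troponin C genes are shown, because Tnnc2 rose and Tnnc1 did not pass, for the same subunit. Each is the 250 bases before the start of the transcript, with every E-box in capitals. An E-box is the motif CANNTG (N is any base), which is bound by muscle regulators such as MyoD and by many other factors, and it reads the same way on both strands. The Tnnc2 window is chr2:164779735-164779984 on the minus strand and the Tnnc1 window is chr14:31208062-31208311 on the plus strand.
Tnnc2: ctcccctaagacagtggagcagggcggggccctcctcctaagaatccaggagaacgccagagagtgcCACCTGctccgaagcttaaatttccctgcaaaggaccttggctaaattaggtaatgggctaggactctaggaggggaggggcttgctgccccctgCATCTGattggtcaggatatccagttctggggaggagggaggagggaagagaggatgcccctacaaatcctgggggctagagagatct
Tnnc1: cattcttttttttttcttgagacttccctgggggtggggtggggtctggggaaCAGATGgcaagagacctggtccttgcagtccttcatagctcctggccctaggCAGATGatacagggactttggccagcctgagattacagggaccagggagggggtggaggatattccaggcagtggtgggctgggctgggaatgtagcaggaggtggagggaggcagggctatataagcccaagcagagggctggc
Both windows hold 2 E-boxes, so this count does not separate the fast gene from the slow and cardiac gene. All 8 windows of the troponin genes held 1 to 5 E-boxes in their 300 bases (250 before and 50 after the start), as did 72.3% of all 32851 windows at least once. The motif CATTCC, searched on both strands, was found in the Tnnc1 window and in 1 of the Tnnt2 windows and in 14.7% of all windows. TATAAA was found for Tnnt1 and in 13.6% of all. The MEF2 and CArG consensus motifs, with 3.19% and 1.63% of all windows, had no match in the 8. A match is a description of the letters and not of a bound site.

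In the P5 OC none of the 8 troponin genes passed, where 0.61% of all probesets did (0.0604% higher and 0.549% lower). At an unadjusted p under 0.05 there were 3, Tnni2, Tnnc2 and Tnnc1, all higher in Tg1MDW/1MDW, where 16.4% of all probesets were under it. Tnni2 had a lowest, median and highest signal of 6.51, 6.87 and 7.25 over 5 Tg1MDW/1MDW arrays and 6.28, 6.48 and 6.79 over 5 WT arrays. The groups overlapped, and the change was 0.39 (interval 0.13 to 0.64, unadjusted p = 0.0062, adjusted p = 0.18 in limma). Tnnc2 had 5.39, 5.84 and 6.01 in Tg1MDW/1MDW and 5.15, 5.50 and 5.68 in WT, with a change of 0.34 (interval 0.06 to 0.62, limma adjusted p = 0.25). Tnnc1 had 5.62, 5.81 and 6.08 in Tg1MDW/1MDW and 5.41, 5.52 and 5.77 in WT, with a change of 0.31 (interval 0.10 to 0.51, limma adjusted p = 0.18). The calls at P5 depended on the arrays used. Without Tg1MDW/1MDW replicate 3, which had the lowest Tnni2 and Tnnc2 signals of its group, Tnni2 (0.48, limma adjusted p = 0.024) and Tnnc2 (0.43, adjusted p = 0.0457) passed. Under array weights, which gave that array the lowest weight of all 16 (0.317), Tnni2 alone passed (0.45, adjusted p = 0.038). With the Y-linked average added as a covariate, the changes of Tnni2, Tnnc2 and Tnnc1 were 0.37, 0.27 and 0.21, with limma adjusted p of 0.72, 0.77 and 0.75.

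Tnnt3, the gene with the largest P18 rise, had a lowest, median and highest P5 signal of 6.41, 6.69 and 6.90 in Tg1MDW/1MDW and 6.34, 6.69 and 6.80 in WT. The medians were equal, and the change of 0.06 had an interval of -0.18 to 0.29 (limma adjusted p = 0.82). The sign of so small a change turned with the Y-linked covariate (-0.01). For Tnnt2, Tnni3, Tnni1 and Tnnt1 the P5 changes were 0.15, 0.15, 0.05 and -0.10, with adjusted p between 0.31 and 0.80 in limma, and the genotypes overlapped for each. Of the 7 isoform pairs at P5, the changes of Tnnt1 and Tnnt2 differed by -0.26 (exact permutation p = 0.024) and those of Tnni2 and Tnni1 by 0.34 (exact permutation p = 0.0476), both 0.18 after adjustment over 14 pairs.

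The genotype effect at P18 was larger than that at P5 for 2 of the 8 troponin genes and smaller for 0, where 0.596% of all probesets passed (0.541% for a larger and 0.0547% for a smaller effect). The effects differed by 2.86 for Tnnt3 (interval 2.47 to 3.25, adjusted p = 4.4e-07 in limma) and by 1.5 for Tnnc2 (interval 1.04 to 1.96, adjusted p = 0.0020). For Tnni2 the difference of 0.92 (interval 0.50 to 1.34) lay just outside the threshold, with a limma adjusted p of 0.0505. It passed in 7 other settings (adjusted p 0.0051 to 0.045), among them without Tg1MDW/1MDW replicate 3 or 4 or WT replicate 2 of P5, and reached 0.17 with repeated quantile normalization. Tnni1 had 0.45 (limma adjusted p = 0.21), and the other 4 genes had differences between -0.19 and 0.16. The tissue changed with the age, from OC to cochlea, so the part of each cannot be told apart.

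In WT samples alone, the P18 cochlea and the P5 OC give the level of each troponin gene without the transgene. Here 2 genes were higher at P18 and 1 was lower, where 50% of all probesets passed (19.8% higher and 30.2% lower), so these counts are in the range of the array as a whole. Tnnt2 read 7.53, 7.44 and 7.58 at P18, against 6.75, 6.93 and 7.12 as lowest, median and highest at P5. The groups were fully apart, with a change of 0.59 (standard error 0.09, limma adjusted p = 2.7e-05). Here too age and tissue cannot be told apart. As deposited, this is the largest difference between the WT groups of any troponin gene, while after repeated quantile normalization Tnnt2 and Tnnc2 were both at 0.67. In Tg1MDW/1MDW the P18 mean was likewise higher, 7.49 against 7.08 at P5. Tnnc2 was higher by 0.42 (adjusted p = 0.032 in limma), but not past the threshold when any of the 3 WT P18 arrays or WT P5 replicate 2 or 5 was left out (adjusted p 0.056 to 0.093). Tnni1 was lower by 0.35 (5.61 ± 0.12 at P18, n = 3, and 5.96 ± 0.13 at P5, n = 5, mean ± SD, limma adjusted p = 0.010). Without WT P18 replicate 1 its adjusted p was 0.066. Repeated quantile normalization moved the median of all probesets in this comparison by 0.15. It left Tnni1 at -0.09 (adjusted p = 0.45) and turned the sign of Tnnt1 (-0.19 as deposited, 0.05 after) and Tnni3 (-0.14 as deposited, 0.09 after), neither of which had passed.

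Ordered by mean, the P18 Tg1MDW/1MDW group was highest for Tnnt3, Tnni2, Tnnc2 and Tnni1. For Tnni1 it overlapped with the next group (6.10 ± 0.10, n = 3, against 6.01 ± 0.17 in Tg1MDW/1MDW P5, n = 5), while for the fast genes it did not. For Tnnt3 they were 6.76 ± 0.17 in WT P18 (n = 3), 6.66 ± 0.18 in Tg1MDW/1MDW P5 and 6.60 ± 0.22 in WT P5 (mean ± SD, n = 5 each), and neighbours in this order overlapped. For Tnni2 the second group was Tg1MDW/1MDW P5 (6.87 ± 0.27), then WT P18 (6.79 ± 0.05) and WT P5 (6.48 ± 0.21), again with overlap between neighbours. Tnnc2 had 5.85 ± 0.06 in WT P18, 5.77 ± 0.23 in Tg1MDW/1MDW P5 and 5.43 ± 0.24 in WT P5, with overlap between neighbours. The Tnnt2 order followed age and tissue, which changed together, with both P18 groups (7.49 ± 0.08 in Tg1MDW/1MDW and 7.52 ± 0.07 in WT) above both P5 groups (7.08 ± 0.10 in Tg1MDW/1MDW and 6.93 ± 0.13 in WT). For Tnnt1, Tnnc1 and Tnni3 the 4 means spanned 5.98 to 6.16, 5.55 to 5.85 and 6.09 to 6.38, with overlap between neighbours in each order.

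Other genes of the sarcomere were read from lists grouped by fibre type. Of 14 further genes of fast fibres, 10 were higher at P18 and 0 lower, with a median change of 1.57. Myh1, a fast myosin heavy chain, rose by 3.44 (adjusted p = 2.2e-12 in limma), Myl1, a fast myosin light chain, by 3.39 (2.7e-09), Atp2a1, the calcium pump of fast fibres, by 3.62 (3.8e-09), and Casq1, a calcium store of the sarcoplasmic reticulum, by 2.41 (9.0e-08). The 4 that did not pass were Mylk2, Pvalb, Mybpc2 and Actn3, of which Pvalb (0.16) is also strong in neurons. Of 12 slow fibre genes, 1 was higher, Myoz2, a protein of the Z disc (0.81, adjusted p = 0.022), and the median was 0.08. Next by adjusted p were Mybpc1 (0.59, adjusted p = 0.17 in limma) and Pln (0.41, adjusted p = 0.24), which did not pass. Myh7, the slow myosin heavy chain, had 0.28 and Atp2a2, the slow and cardiac calcium pump, had -0.07, neither past the test. Atp2a2 had group means of 11.07 to 11.17 and Tpm3, of the same list, 11.01 to 11.22, also in the P5 OC. A small addition of RNA from slow fibres would change such high signals little. The fast and slow lists thus had the same order as the fast and slow troponins, though the difference between lists was not tested.

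Among 18 partners of troponin on the thin filament and its anchor, 7 were higher and 0 lower, with a median of 0.53. They include Neb, the ruler of the thin filament (1.78, limma adjusted p = 2.5e-09), and both striated actins, Actc1 (2.51, 2.2e-07) and Acta1 (1.92, 1.5e-05). Actn2, which crosslinks actin at the Z disc, rose by 1.58 (1.3e-06). Actc1 is the cardiac actin and is also made in developing skeletal muscle. Of the tropomyosins, Tpm2 rose by 0.68 (adjusted p = 0.0066), while Tpm1 (0.00), Tpm3 (-0.06) and Tpm4 (-0.05), which many cells without sarcomeres also use, did not pass. Lmod1 had the most opposite change of the list, -0.16.

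Of 16 cardiac genes, 1 was higher at P18, Ttn (1.53, limma adjusted p = 9.0e-08), which encodes the giant spring of every striated muscle, and the median was -0.08. Myh6, the atrial and cardiac myosin, had -0.01 and Nppa, the atrial hormone, -0.31, neither past the test. Of 16 genes of developing or regenerating muscle, 3 were higher, with a median of 0.01. Those were Mstn, the growth inhibitor myostatin (1.26, adjusted p = 1.5e-05), Myf6, a muscle regulator that persists in mature fibres (0.83, 2.1e-04), and Musk, a kinase of the nerve-muscle junction (0.54, 0.022). Myh3 (0.01) and Myh8 (0.13), the embryonic and perinatal myosins, did not pass, nor did Cdh15, a cadherin of muscle precursors, with the most opposite change (-0.32). None of 10 smooth muscle genes passed at P18 (median 0.02). At P5, 0 genes of the thin filament, fast, slow, cardiac and developing lists passed, and 1 smooth muscle gene, Smtn, fell by 0.73 (adjusted p = 3.9e-05 in limma).

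**Figure D3:**
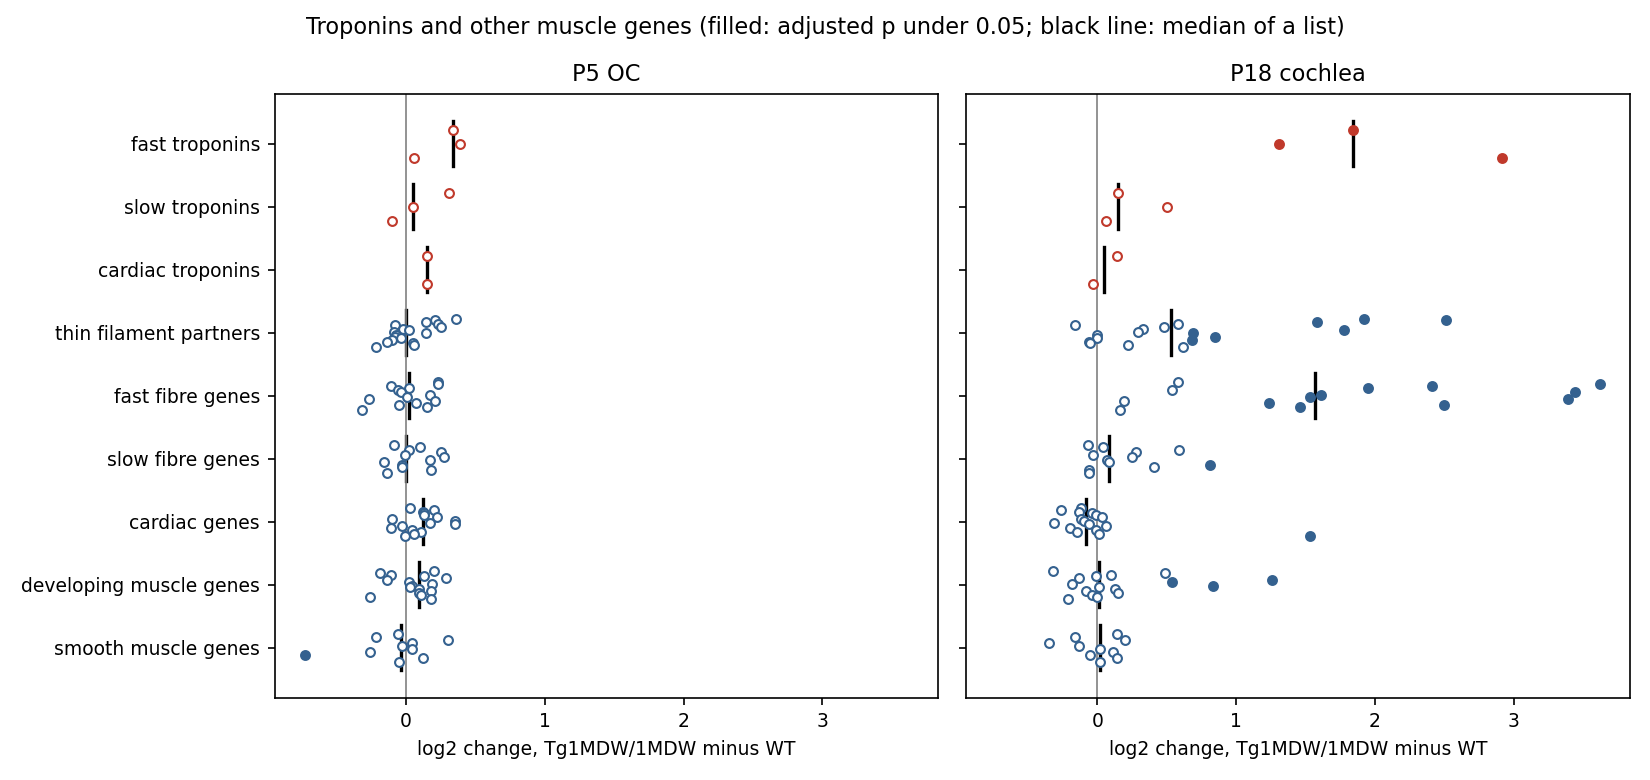
Change of log2 signal, Tg1MDW/1MDW minus WT (horizontal axis), of the troponins (red) and of each gene of the muscle lists (blue) in the P5 OC and the P18 cochlea, with filled points for an adjusted p under 0.05 in limma and a black line at a list's median. At P18 the fast troponins (median 1.84) and the fast fibre genes (1.57) lie to the right, and the slow, cardiac, developing and smooth muscle lists centre between -0.08 and 0.08. Actn3 and Tpm3 belong to 2 lists and are drawn in both.

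The defining genes of other cell types were read on the same arrays. The summed log2 signal of the 14 fast fibre genes was 109.5 to 111.4 in Tg1MDW/1MDW and 85.36 to 86.36 in WT at P18. At P5 it was 81.79 to 84.36 in Tg1MDW/1MDW and 80.90 to 84.74 in WT. The P18 sum of the 12 slow fibre genes was 82.12 to 82.68 in Tg1MDW/1MDW and 79.85 to 80.11 in WT. That of Tnnt1, Tnni1 and Tnnc1 was 17.64 to 18.06 in Tg1MDW/1MDW and 17.14 to 17.24 in WT. Both slow sums were thus higher without overlap, and these differences of sums were not tested. None of the lists for hair cells (12 genes), supporting cells (10), stria and lateral wall (10), Schwann cells (5 measured) or bone and cartilage (7 measured) had a gene past the test at P18. Of 8 genes of cerebellar granule cells, a type that is not part of the cochlea, 6 were lower in Tg1MDW/1MDW at P18 and 0 higher. Their summed log2 signal was 48.91 to 49.11 in Tg1MDW/1MDW and 55.59 to 55.94 in WT. Gabra6, a receptor subunit of granule cells, had a mean of 3.80 in Tg1MDW/1MDW, below the lower quartile of each array, and fell by 1.87 (adjusted p = 2.8e-10 in limma). Zic2, 1 of the 2 that did not pass, had 0.13. Fast fibre genes that passed were higher and granule cell genes that passed were lower between the same 6 arrays, and the part that the makeup of the dissected tissue had in the troponin changes was not tested. At P5, 4 of the 5 Schwann cell genes were lower in Tg1MDW/1MDW and 0 higher.

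Genes with the most similar pattern were ranked by Pearson's r over the 16 arrays among 19929 genes, all but the 8 troponins, as a description. The 16 points share the split by age and tissue, and for fast subunits the 3 P18 Tg1MDW/1MDW arrays stand apart from the other 13. Tnnt3 was most like Atp2a1 (0.995), Ckm, the muscle creatine kinase (0.994), Asb12 (0.989), Myh1 (0.985) and Klhl41, a sarcomere protein (0.983). Tnnc2 was most like Mb, the myoglobin gene (0.983), Atp2a1 (0.982), Actc1 (0.981), Actn2 (0.980) and Ckm (0.979). For Tnni2 they were Nrap, a protein of muscle attachment sites (0.973), Klhl31 (0.968), Tmem182 (0.968), Ckm (0.958) and Acta1 (0.952). Ckm was thus among the 5 most similar genes of each fast subunit.

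Fewer muscle genes were found near the slow and cardiac subunits. The 5 genes most like Tnnt2 were Fads6 (0.981), Psmb9, a subunit of the immunoproteasome (0.978), Cebpe, a factor of granulocyte precursors (0.978), Pik3r5 (0.967) and Fcer1g, a receptor chain of blood cells (0.967). None of them is in a muscle list, and the points share the difference between the ages and tissues. Tnnc1 was most like Kash5 (0.866), Tnni1 like Bpifa2 (0.870), Tnnt1 like Olfr1087 (0.847) and Tnni3 like Zic2 (0.877), none of them in a muscle list, although Xirp1, an actin-binding protein of striated muscle, was among the 5 most similar to Tnni1 (0.837), and Ankrd2, a stretch-responsive muscle protein, among those of Tnnc1 (0.834).

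Among the troponins, r over 16 arrays was 0.97 for Tnnt3 and Tnnc2, 0.96 for Tnni2 and Tnnc2 and 0.94 for Tnnt3 and Tnni2. Against the slow and cardiac genes, the fast genes had r between -0.21 and 0.67, the highest with Tnnt2. When the mean of each group was subtracted from its arrays, r was 0.64 for Tnnt3 and Tnnc2, 0.54 for Tnni2 and Tnnc2 and 0.70 for Tnnt3 and Tnni2. Between fast and slow or cardiac genes it was 0.05 to 0.72 on this measure, highest for Tnnc2 and Tnni1, and 0.63 for Tnnt3 and Tnnt2, so the fast genes did not stand apart within groups. Of the 5 genes most like each fast subunit on that measure, 0 were in a muscle list, while 1 of those most like Tnni1 was, Xirp1 (0.868). They were led by Defb43 for Tnnt3 (0.964), Epha8 for Tnni2 (0.934) and Olfr401 for Tnnc2 (0.918).

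Several troponin genes lie in pairs along the genome, which puts a fast gene beside another and slow genes beside cardiac ones. In the annotation Tnni2 and Tnnt3 are separated by Lsp1, Tnni1 and Tnnt2 by Lad1, and Tnnt1 and Tnni3 are adjacent. Around all 8 genes, 22 neighbours were measured, those between a pair and the nearest 2 on each side. None passed at P18 (changes from -0.32 to 0.22) or at P5 (-0.25 to 0.44). Lsp1, a blood cell protein that lies between 2 fast subunits with changes of 1.31 and 2.92, had -0.13 at P18 (limma adjusted p = 0.85). On the far side of Tnnt3, the growth factor gene Igf2 had -0.32 (unadjusted p = 8.0e-04, adjusted p = 0.10 in limma). In the pair Tnni1 and Tnnt2, with 0.50 and -0.03, Lad1 had 0.02.

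**Figure D4:**
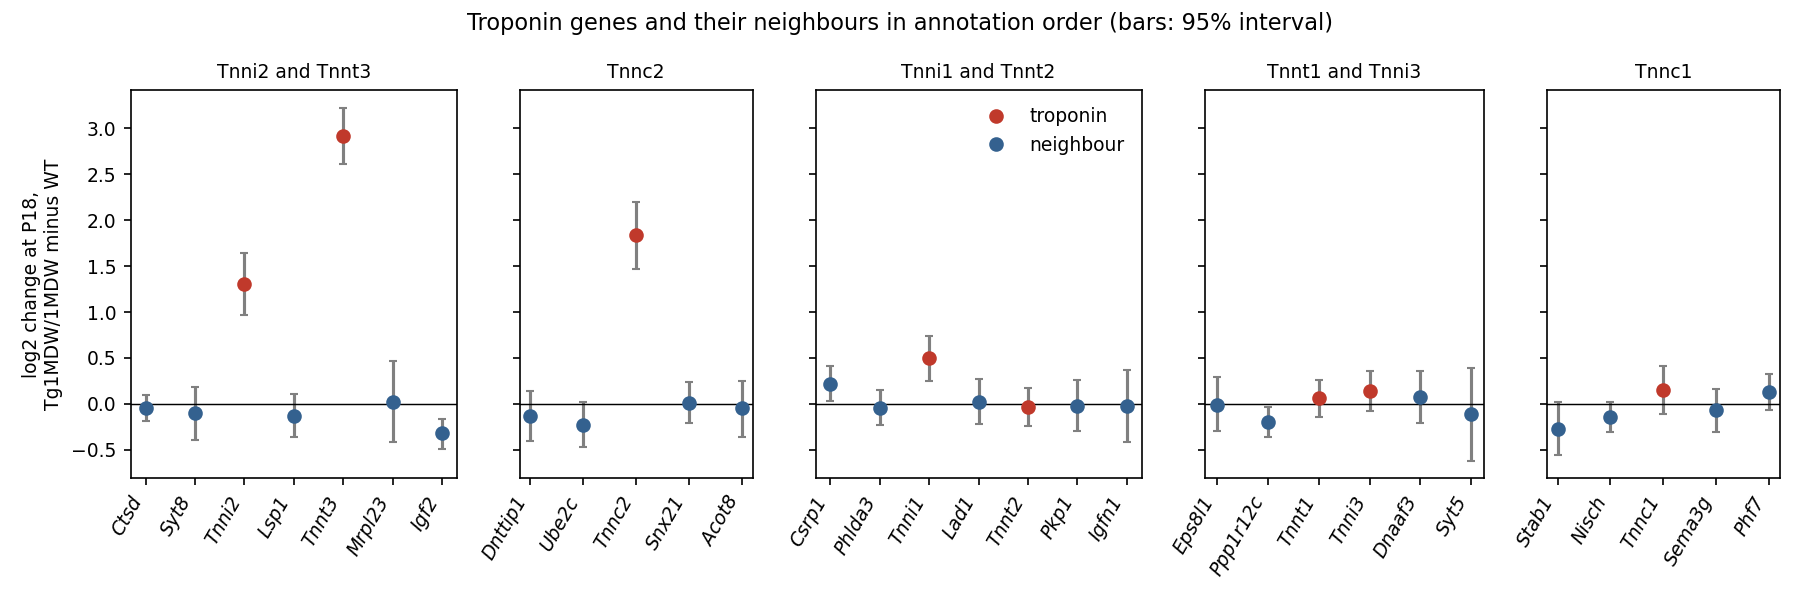
Change of log2 signal at P18, Tg1MDW/1MDW minus WT (vertical axis), of the troponin genes (red) and their measured neighbours (blue) in the order of the annotation, 1 panel per locus, with 95% intervals from limma. Tnni2 (1.31), Tnnt3 (2.92) and Tnnc2 (1.84) rise above neighbours that range from -0.32 to 0.22, and Tnnt1 and Tnni3 lie among their neighbours.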

How the data were processed

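RNA from 16 samples was kept in RNAlater, purified on columns and read on MoGene 1.0 arrays. Values for 34760 probesets (2.09 to 13.72) are log2 signals that the authors normalized and deposited. The methods name an ANOVA block design in limma and do not say what the block was. The main fit here has no block, and results with a replicate block are given in the last section. Background correction, normalization and probe summary are not given in the sources used here. The values were used as deposited.

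Of the probesets, 21640 have 1 symbol in the platform table, 1321 several and 11799 none. A fit of 4 group means to all 16 arrays (limma 3.58.1, R 4.3.3, lmFit and eBayes, 12 residual degrees of freedom) gave 2-sided tests for Tg1MDW/1MDW minus WT at each age, for the difference of these effects and for P18 minus P5 in WT. P-values were adjusted by Benjamini and Hochberg over all probesets, and a gene passed at an adjusted p under 0.05. No probeset was filtered out. Isoform pairs were compared by exact permutation (scipy 1.17.1). The number of arrays limits the precision.

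The fit was tested on simulated data of 34760 probesets. At P5 it recovered 94% of 2-fold and 64.2% of 1.5-fold changes, and at P18 86.6% of 2-fold and 46.3% of 1.5-fold changes.

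The members, gene lists and tests were chosen with earlier results of these data known. Named genes are the 8 members, up to 4 genes of a list by smallest adjusted p with the one most opposite, the 5 most similar genes by Pearson's r, and neighbours. Pvalb, Mylk2, Mybpc2, Actn3, Myh6, Myh7, Atp2a2, Myh3, Myh8, the tropomyosins, Gabra6 and Smtn were named as further examples of their lists after their values were seen. Results were recomputed with a replicate block, with each age fitted alone, without dim probesets, with single-symbol probesets, after repeated quantile normalization, and with another variance model, array weights, a Y-linked covariate, a fold limit or each array left out.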

Additional observations from a re-analysis of the deposited data

Results flagged for a closer look

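The genotype effect of Tnnt3 was larger at P18 than at P5 by 2.86 on the log2 scale (adjusted p = 4.4e-07 in limma), with all 3 Tg1MDW/1MDW arrays above all 3 WT arrays at P18 and overlapping groups at P5. The effect of Tnnc2 was larger at P18 by 1.5 (adjusted p = 0.0020 in limma), with the same pattern of overlap. In both, tissue and age changed together.

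Tnnt2 on Tg1MDW/1MDW replicate 3 of P5, at 6.91, lay apart from the other 4 arrays of its group, which were at 7.09 to 7.14. By this measure chance sets an array apart in about 1 of 20 groups. The same array had the lowest weight of the 16.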

How the results depend on the processing

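At P18 the fast subunits Tnnt3, Tnnc2 and Tnni2 passed in every setting in which they were tested. Changes over the settings other than left-out arrays were 2.76 to 2.93, 1.67 to 1.87 and 1.2 to 1.31. A filter that left out the dimmer 50% of probesets kept 3 troponin genes, among them Tnnt3 and Tnni2 but not Tnnc2, so 2 were higher at P18. The P18 count of higher genes was 3 with each array left out in turn, and 4 with array weights or single-symbol probesets, which added Tnni1. The P5 count of higher genes, 0 as deposited, was 1 with array weights and 0 to 2 with an array left out. The count with a larger effect at P18 than at P5, 2 as deposited, was 4 with array weights and 2 to 3 with an array left out. For WT P18 minus WT P5, 2 higher and 1 lower became 1 and 0 without the dimmer 50% of probesets, 4 and 0 after repeated quantile normalization, and 0 and 0 with a limit of at least 2-fold. Array weights gave 2 lower, and leaving out arrays gave 1 to 3 higher and 0 to 2 lower. The cause was not tested.

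Signs turned only for changes that had not passed. At P5 Tnnt3 was -0.01 with the Y-linked covariate and -0.01 to 0.12 with an array left out, and Tnni1 was -0.01 after quantile normalization. At P18, leaving out an array gave -0.01 to 0.11 for Tnnt1 and -0.07 to 0.01 for Tnnt2. For the difference of effects, Tnni3 was 0.03 after quantile normalization, 0.03 with array weights, 0.09 with the Y-linked covariate and -0.06 to 0.06 with an array left out. For the ages in WT, quantile normalization gave 0.05 for Tnnt1 and 0.09 for Tnni3. The change of Tnnc2 minus that of Tnnc1 at P5 went down to -0.02, and that of Tnnt1 minus Tnnt2 at P18 lay between -0.02 and 0.16, with an array left out.

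Replicate numbers are shared by Tg1MDW/1MDW and WT. Same-numbered arrays deviated together with correlations of -0.224 to 0.36 at P5 and 0.000429 to 0.0686 at P18. Arrays of different numbers had -0.47 to 0.476 at P5 and -0.0496 to 0.0448 at P18. The numbers were therefore not taken as pairs, although some P5 arrays of different numbers shared deviations. With a replicate block the counts of troponin genes were the same, 0 at P5, 3 at P18 and 2 for the difference of effects, while 139 probesets passed at P5 in place of 212, and 95 at P18 in place of 154. Averaging probesets of a gene was not run, since each troponin gene has 1, and separate fits per age give no value between the ages.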
